A study of Arabidopsis thaliana with 8 samples.

Results

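The class II homeodomain-leucine zipper (HD-ZIP II) genes ATHB2, HAT1, HAT2, HAT3, ATHB4 and HAT22 of Arabidopsis thaliana were followed through all libraries of a seedling RNA-seq series. They were listed by locus name, with no threshold on their values: AT4G16780 (ATHB2), AT4G17460 (HAT1), AT5G47370 (HAT2), AT3G60390 (HAT3), AT2G44910 (ATHB4) and AT4G37790 (HAT22). The choice was made with earlier results of these data known. Each locus had 1 gene model, so that 6 of the 27416 models in the files were used. The groups, of 2 libraries each, were the cry1 cry2 double mutant grown in blue light, the tir1 afb1 afb2 afb3 quadruple mutant grown in darkness, the wild type in blue light and the wild type in darkness. All were Col-0 seedlings with a labelled growth time of 4.5 days. They had spent 3 days in the cold on medium with 1% sucrose and 12 h in white light before 4 days of darkness or of blue light at 15 µmol per m2 per s. The study asked which genes depend on cryptochromes, the blue light receptors lost in cry1 cry2, and which on the TIR1/AFB auxin receptors lost in the quadruple mutant. The labels name no alleles, and nothing in them tells if paired libraries were grown apart, so the spread behind each p below may be technical.

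HD-ZIP proteins are found in plants and bind DNA as pairs, held together by a leucine zipper that directly follows the homeodomain. Class II members act mostly as repressors of transcription. In green seedlings, shade (light rich in far-red) inactivates phytochromes and frees the PIF transcription factors, and ATHB2, HAT1, HAT2, HAT3 and ATHB4 are among the genes switched on fastest. ATHB2 promotes hypocotyl elongation in shade and is known to repress its own gene. HAT2 was first described as an auxin-induced gene. HAT3 and ATHB4 act with ATHB2 in the shoot meristem and on the upper side of cotyledons and leaves. HAT1 also takes part in brassinosteroid responses as a co-repressor. HAT22, also named ABIG1, is better known for growth arrest under drought and abscisic acid than for shade.

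The genes lie apart from one another in the TAIR10.1 assembly, and no other annotated gene overlaps any of the 6. ATHB2 is on chromosome 4 from 9449114 to 9450905, HAT1 on chromosome 4 from 9739518 to 9741234 and HAT22 on chromosome 4 from 17768042 to 17769676, all on the plus strand. HAT2 is on chromosome 5 from 19216271 to 19218007, HAT3 on chromosome 3 from 22320580 to 22322661 and ATHB4 on chromosome 2 from 18517656 to 18519731, all on the minus strand. The upstream sequence of each gene, 1000 bases before the RefSeq gene start, was read for letters known from the pathways of interest, on both strands. These were the G-box CACGTG and the related PBE-box CACATG, both bound by PIF proteins, the auxin response elements TGTCTC and TGTCGG, and the HD-ZIP site CAATNATTG, whose form CAATGATTG is the one class II proteins prefer.

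Printed here are the stretches that hold the HD-ZIP sites of ATHB2 and HAT1. The stretch of HAT2 that holds an auxin response element and the PBE-box nearest to a gene start is printed too. ATHB2 and HAT2 were chosen as genes that fell by over 2-fold with blue light, and HAT1 as the gene that changed least. HAT22 and ATHB4 also fell by over 2-fold and are not printed. A link between the letters and the response was not tested. Capitals mark the motif letters, and sequences run 5′ to 3′ on the strand of the gene, from TAIR10.1. The ATHB2 stretch is chr4:9448612-9448671 on the plus strand, with its site at positions -477 to -469 from the gene start. The HAT1 stretch is chr4:9738754-9738813 on the plus strand, with its site at -738 to -730. The HAT2 stretch is chr5:19218108-19218317 on the minus strand, and its capitals mark TGTCTC and CACATG, both present as their reverse complements, at -303 to -298 and -118 to -113.
ATHB2: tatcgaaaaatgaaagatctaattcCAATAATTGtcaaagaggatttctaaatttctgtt
HAT1: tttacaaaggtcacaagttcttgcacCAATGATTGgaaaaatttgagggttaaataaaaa
HAT2: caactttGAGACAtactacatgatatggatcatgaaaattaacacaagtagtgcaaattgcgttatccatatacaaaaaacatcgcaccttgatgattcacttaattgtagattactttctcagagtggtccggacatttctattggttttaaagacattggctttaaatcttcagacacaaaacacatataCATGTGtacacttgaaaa

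The HD-ZIP site stood in 2 of the 6 windows, against 3.44% of 27443 protein-coding genes, and the class II form CAATGATTG in 1 (HAT1), against 1.21%. The PBE-box stood in 4 (HAT1, HAT2, HAT3 and HAT22), against 37.7%, and TGTCTC in 2 (HAT2 and HAT22), against 39.6%. The G-box and TGTCGG stood in 0 of the 6 windows, against 14.8% and 14.6% of all genes. ATHB4 had none of these letters in its window. The matches are descriptions of the windows and show no binding.

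**Figure D1:**
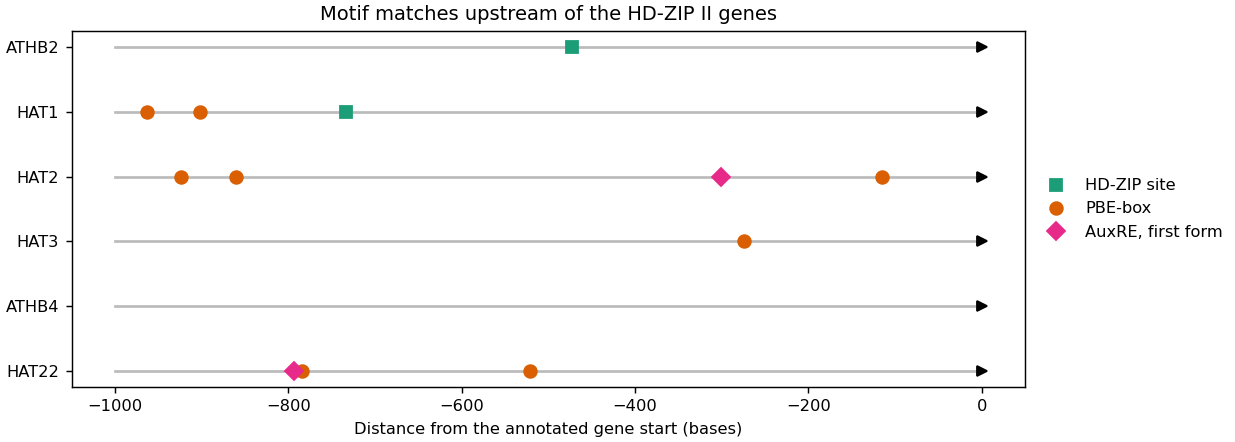
Positions of motif matches in the 1000 bases before the annotated start of each gene (arrowhead), with distance in bases on the horizontal axis and 1 line per gene. HD-ZIP sites lie before ATHB2 and HAT1, PBE-boxes before HAT1, HAT2, HAT3 and HAT22, and the TGTCTC element before HAT2 and HAT22.

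Levels were given by the authors as RPKM, reads scaled to the length of the gene model and to the size of the library. The libraries held 19.3 to 23.1 M reads, recovered from the steps between low values, and the reads of each gene were recovered the same way. ATHB4 rested on the fewest reads, 26 and 45 in the tir1 afb1 afb2 afb3 libraries, and HAT22 on the most, up to 2349 in a library of the dark wild type. The deposited model of ATHB4 was 957 bases long, the length of its coding sequence, while the others were 1171 to 1370 bases long and longer than theirs, so reads outside the coding part could not add to the level of ATHB4. The longest run of bases shared by any pair of the 10 HD-ZIP II transcripts was 38 (HAT1 and HAT2). The way reads that fit more than 1 gene were treated is not given in the sources used here. As a check of the labels, CRY2 stood at 0.0777% of the blue-lit wild type in cry1 cry2, and AFB2 and AFB1 at 1.55% and 3.16% of the dark wild type in the quadruple mutant. CRY1 stayed at 72.2% in cry1 cry2, and TIR1 and AFB3 at 77.1% and 50.3% in the quadruple mutant, so the transcript level of these 3 genes did not identify the mutants. Markers of flowers, which a seedling lacks, summed to 0.512 to 1.37 RPKM in the 8 libraries. Markers of roots, vessels and photosynthetic tissue were present, as were STM and KNAT1 of the shoot apex. WUS of the stem cell niche was at 0 in 7 of 8 libraries, and CLV3 and CUC2 averaged under 1 RPKM in every group.

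Fold changes below are on the log2 scale of RPKM + 1, with standard error (SE), from 1 limma fit of all libraries, and "rose" and "fell" are used at a Benjamini-Hochberg adjusted p under 0.05 over 20044 tested genes. All 6 genes passed the filter of 1 RPKM in at least 2 libraries. Values after ± are SD over the 2 libraries of a group. This scale understates the change of low genes, above all ATHB4.

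ATHB2, the early shade gene, was at 45.5 and 44.1 RPKM in cry1 cry2 in blue light, 8.33 and 8.13 RPKM in tir1 afb1 afb2 afb3 in darkness, 19.4 and 20.6 RPKM in the blue-lit wild type and 64.6 and 68.1 RPKM in the dark wild type. The groups of ATHB2 did not overlap, with the dark wild type highest and the auxin receptor mutant lowest. HAT2, the auxin-induced member, was at 60.8 and 58.0 RPKM in cry1 cry2, 12.1 and 11.2 RPKM in the auxin receptor mutant, 21.8 and 21.1 RPKM in the blue-lit wild type and 62.3 and 65.1 RPKM in the dark wild type. For HAT2 the cry1 cry2 and dark wild-type libraries lay close together, well above the other two groups. HAT1 was at 26.1 and 22.7 RPKM in cry1 cry2, 4.21 and 4.76 RPKM in the auxin receptor mutant, 22.9 and 23.4 RPKM in the blue-lit wild type and 31.1 and 31.7 RPKM in the dark wild type. Here the cry1 cry2 libraries lay on both sides of the blue-lit wild type, and the auxin receptor mutant stood alone at the bottom.

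HAT3, one of the polarity and meristem genes, was at 28.3 and 27.4 RPKM in cry1 cry2, 4.26 and 3.59 RPKM in the auxin receptor mutant, 16.4 and 18.4 RPKM in the blue-lit wild type and 27.4 and 26.4 RPKM in the dark wild type. Its partner ATHB4 was at 10.5 and 9.58 RPKM in cry1 cry2, 1.23 and 2.204 RPKM in the auxin receptor mutant, 3.91 and 2.77 RPKM in the blue-lit wild type and 8.28 and 8.68 RPKM in the dark wild type. Both genes were highest in cry1 cry2 and the dark wild type and lowest in the auxin receptor mutant, and the low-level libraries of ATHB4 differed most between replicates. HAT22, the abscisic acid-related member, was at 69.9 and 70.2 RPKM in cry1 cry2, 35.1 and 31.1 RPKM in the auxin receptor mutant, 26.4 and 30.2 RPKM in the blue-lit wild type and 80.8 and 84.8 RPKM in the dark wild type. It was the only one of the 6 whose lowest libraries were those of the blue-lit wild type.

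**Figure D2:**
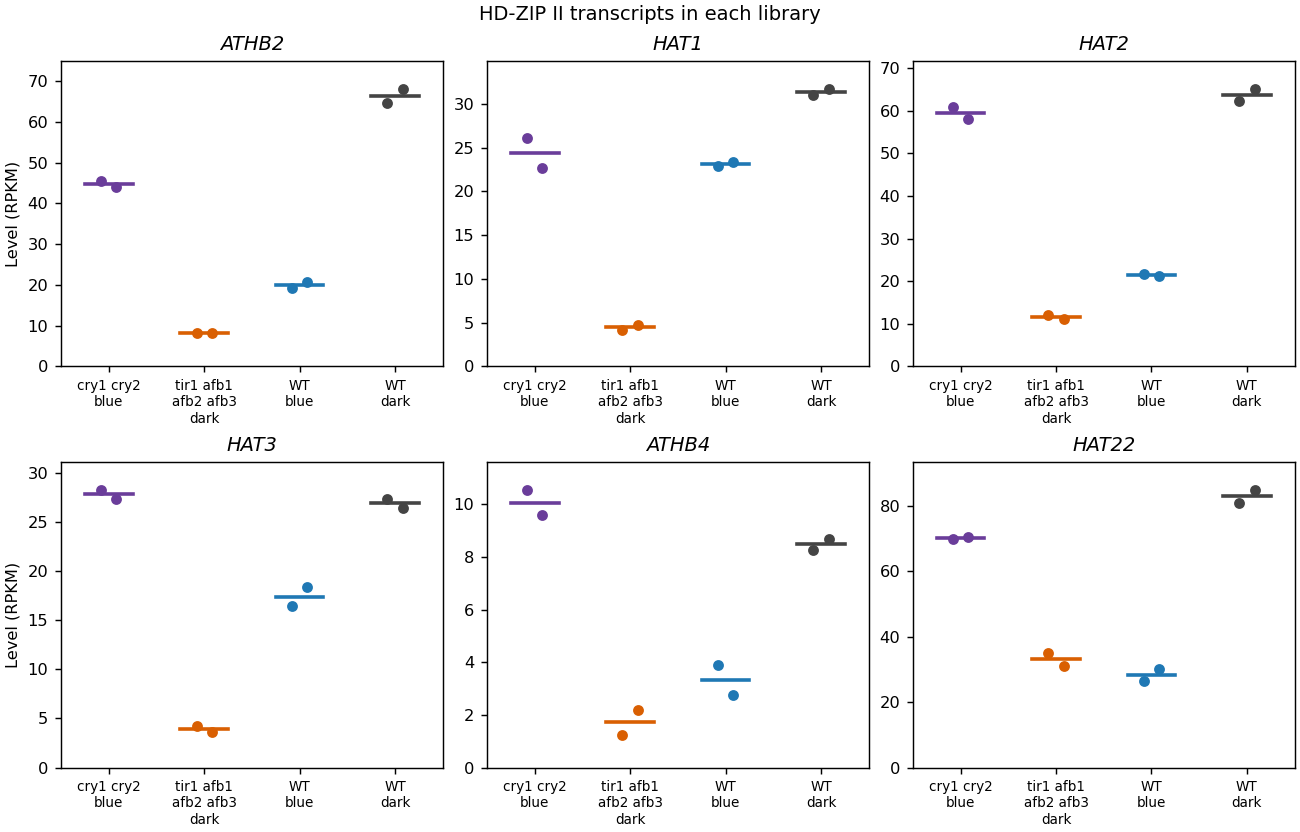
Level in RPKM (vertical axes, from 0) of each HD-ZIP II gene in the 8 libraries, with points for the 2 libraries of a group and a bar at their mean. The auxin receptor mutant has the lowest libraries for ATHB2, HAT1, HAT2, HAT3 and ATHB4, and the blue-lit wild type for HAT22.

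The first comparison asked how these genes responded to blue light in the wild type. All 6 fell, against 40.4% of all tested genes that fell. Falls of 2-fold or more were found for 4 of them, against 9.42%. ATHB2 had the lowest share left, with a log2 fold change of -1.68 (SE 0.06, limma adjusted p = 3.79e-10). HAT2 fell by 1.53 (SE 0.06, limma adjusted p = 7.67e-10) and HAT22 by 1.52 (SE 0.07, limma adjusted p = 5.69e-09), so that ATHB2, HAT2 and HAT22 kept 30.1%, 33.7% and 34.2% of their dark levels. ATHB4 fell by 1.14 (SE 0.17, limma adjusted p = 6.68e-05), to 3.34 ± 0.81 RPKM in blue light, against 8.48 ± 0.28 RPKM in darkness.

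HAT3 and HAT1 changed less. HAT3 fell by 0.60 (SE 0.08, limma adjusted p = 3.99e-05) and HAT1 by 0.42 (SE 0.08, limma adjusted p = 0.000462), which left 64.7% and 73.7% of the dark levels. The 95% intervals of these changes, -0.78 to -0.42 for HAT3 and -0.60 to -0.25 for HAT1, did not reach those of ATHB2 (-1.81 to -1.55), HAT2 (-1.66 to -1.40) or HAT22 (-1.68 to -1.36). Among all tested genes, 3.32% had a lower log2 fold change than ATHB2, 4.02% than HAT2 and 4.06% than HAT22, against 20.3% for HAT3 and 28.3% for HAT1. The median of the 6 was -1.33, beside -0.06 over all tested genes.

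The libraries are of whole seedlings, in which fewer cells of a type and less RNA per cell cannot be told apart. In blue light the summed vascular markers were at 98.1 to 104.0 RPKM, against 79.8 to 85.2 RPKM in the dark wild type. The higher sum came from the phloem gene SUC2, at 76.1 RPKM in blue light and 49.7 RPKM in darkness, while CESA7 (-0.54) and CESA8 (-0.55) of secondary walls fell and VND7 (-0.15) and APL (-0.06) did not pass. The shoot apex markers summed to 27.9 to 29.4 RPKM in blue light, against 32.3 to 32.9 RPKM in darkness. With blue light STM fell (-0.71), KNAT1 did not pass (-0.10) and the weakly expressed CUC1 (0.34) and CUC3 (0.36) rose. Of the 7 root markers, 2 rose and 4 fell, and all 3 photosynthetic markers rose. Over all tested genes, 34% rose and 40.4% fell with blue light. The part of these shifts in the HD-ZIP II values was not tested.

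The need for cryptochromes was read from cry1 cry2 and wild-type seedlings that shared the blue light. In the mutant 5 of the 6 genes rose, against 41.6% of all tested genes that rose, and 0 fell, against 26.3%. HAT2 averaged 59.4 ± 1.92 RPKM in cry1 cry2 and 21.5 ± 0.436 RPKM in the wild type, a log2 fold change of 1.43 (SE 0.06, limma adjusted p = 2.12e-09). ATHB4 rose by 1.36 (SE 0.17, limma adjusted p = 2.01e-05), HAT22 by 1.28 (SE 0.07, limma adjusted p = 3.69e-08) and ATHB2 by 1.12 (SE 0.06, limma adjusted p = 1.7e-08). Their levels in the mutant were 301%, 248% and 224% of the blue-lit wild type. HAT3 rose by 0.65 (SE 0.08, limma adjusted p = 2.79e-05), to 160% of the wild type.

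HAT1 was the member that did not pass. It averaged 24.4 ± 2.40 RPKM in cry1 cry2 and 23.1 ± 0.365 RPKM in the wild type, a log2 fold change of 0.07 (SE 0.08, limma adjusted p = 0.435) with a 95% interval of -0.10 to 0.25, and its sign turned under upper-quartile scaling (-0.02) and without cry1 cry2 replicate 1 (-0.02). The median of the 6 was 1.20, beside 0.12 over all tested genes. All 5 vascular markers rose in the mutant as well, against 41.6% of all tested genes that rose. Their sum was 157.0 to 166.0 RPKM, against 98.1 to 104.0 RPKM in the blue-lit wild type. The part of these markers in the result was not tested.

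The blue-lit cry1 cry2 seedlings were also set against the dark wild type, which leaves a difference in light and genotype together. Of the 6 genes 3 fell, against 16.5% of all tested genes that fell, and 0 rose, against 25.1%. ATHB2 stayed lower in the mutant, at 44.8 ± 0.977 RPKM against 66.4 ± 2.48 RPKM (log2 fold change -0.56, SE 0.06, limma adjusted p = 2.42e-05), as did HAT1 (-0.35, SE 0.08, limma adjusted p = 0.00421). HAT22 was at 84.6% of the dark wild type (-0.24, SE 0.07, limma adjusted p = 0.0249). The calls of HAT1 and HAT22 were lost without cry1 cry2 replicate 2, which left 1 fallen member. HAT2 (-0.10, 95% interval -0.23 to 0.03), HAT3 (0.05, -0.13 to 0.23) and ATHB4 (0.22, -0.14 to 0.59) did not pass, with limma adjusted p of 0.202, 0.676 and 0.308. All 5 vascular markers rose in this comparison, to a sum of 157.0 to 166.0 RPKM in cry1 cry2, against 79.8 to 85.2 RPKM in the dark wild type, and their part in the HD-ZIP II values was not tested. The 3 comparisons above share libraries in pairs, so their values for a gene are not independent of one another.

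The third comparison asked how the genes depend on the TIR1/AFB receptors in darkness. All 6 were lower in the quadruple mutant, by at least 2-fold in each case, against 51.4% of all tested genes that fell and 15.9% that fell by at least 2-fold, while 27.5% of all genes rose. At least 4-fold falls were found for 4 of the 6, against 3.01%. ATHB2 averaged 8.23 ± 0.141 RPKM in the mutant and 66.4 ± 2.48 RPKM in the wild type (log2 fold change -2.87, SE 0.06, limma adjusted p = 1.34e-11), which is 12.4% of the wild-type level. HAT1 stood at 14.3% (-2.56, SE 0.08, limma adjusted p = 1.47e-10), HAT3 at 14.6% (-2.51, SE 0.08, limma adjusted p = 2.18e-10) and HAT2 at 18.3% (-2.36, SE 0.06, limma adjusted p = 3.92e-11).

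ATHB4 averaged 1.72 ± 0.691 RPKM in the mutant and 8.48 ± 0.28 RPKM in the wild type (-1.83, SE 0.17, limma adjusted p = 9.89e-07). These levels rested on 71 and 321 reads over the 2 libraries of each group. With a pseudocount of 0.1 the log2 fold change of ATHB4 was -2.295, a fall of over 4-fold. HAT22 changed least, at 33.1 ± 2.84 RPKM against 82.8 ± 2.77 RPKM (-1.30, SE 0.07, limma adjusted p = 1.85e-08), or 40% of the wild-type level. Its 95% interval of -1.46 to -1.14 lay apart from those of ATHB2 (-3.00 to -2.74), HAT1 (-2.74 to -2.39), HAT3 (-2.69 to -2.33) and HAT2 (-2.49 to -2.23). Of all tested genes 0.499% had a lower log2 fold change than ATHB2, against 9.6% for HAT22. The median of the 6 was -2.43, beside -0.24 over all tested genes, and upper-quartile scaling moved this median of all genes to -0.10.

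HAT1 and HAT3, which had changed least with blue light, were among the most reduced without the auxin receptors. The order of the pair HAT1 and HAT22 differed between the comparisons: HAT1 kept 73.7% and HAT22 34.2% of the dark level in blue light, whereas HAT1 kept 14.3% and HAT22 40% in the quadruple mutant. Both comparisons share the dark wild-type libraries.

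**Figure D3:**
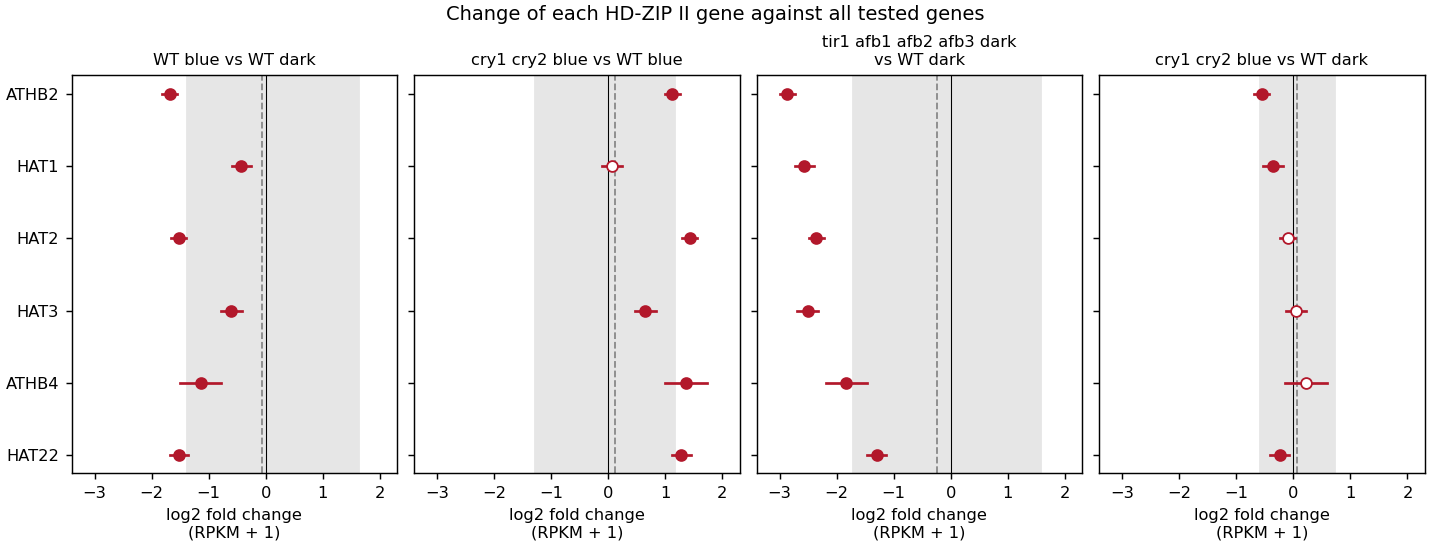
Log2 fold change of RPKM + 1 (horizontal axes) of the 6 genes in 4 comparisons, with 95% intervals as bars, filled points for calls and open points for genes that did not pass. The grey band spans the middle 90% of all tested genes and the dashed line is their median; ATHB2, HAT1, HAT2, HAT3 and ATHB4 lie left of the band in the auxin receptor mutant, where ATHB2 is at -2.87 and HAT22 at -1.30.

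Markers of other tissues moved in the quadruple mutant too, where 51.4% of all tested genes fell and 27.5% rose. All 5 vascular markers fell, the secondary wall cellulose synthases CESA8 and CESA7 to 14.7% and 17.7% of the wild type, and the vascular sum was 41.9 to 44.1 RPKM, against 79.8 to 85.2 RPKM in the wild type. Of 7 root markers 6 fell, among them the root hair genes RHD6 (10.7% of the wild type) and COBL9 (13.3%), and the quiescent centre gene WOX5 did not pass (-0.18, SE 0.14, limma adjusted p = 0.25). Of the 4 shoot apex markers that could be tested, CUC1 and CUC3 rose, KNAT1 fell and STM did not pass, and the summed level of all 7 was 22.5 to 23.0 RPKM, against 32.3 to 32.9 RPKM. The photosynthetic markers RBCS1A, LHCB1.1 and RCA rose. The part of these shifts in the HD-ZIP II values was not tested.

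Summed over the 6 genes, the level was 236.6 ± 6.37 RPKM in cry1 cry2, 63.1 ± 2.95 RPKM in the auxin receptor mutant, 113.6 ± 4.12 RPKM in the blue-lit wild type and 279.7 ± 7.31 RPKM in the dark wild type. HAT22 gave 29.6% of the sum both in cry1 cry2 and in the dark wild type, HAT2 gave 25.1% in cry1 cry2 and 22.8% in the dark wild type, and ATHB2 18.9% and 23.7%. In the auxin receptor mutant HAT22 alone gave 52.5% of the sum, with 51.0% to 53.9% in the 2 libraries, against 29.4% to 29.8% in the dark wild type. In the blue-lit wild type HAT1 gave 20.4%, against 11.2% in the dark wild type, and HAT3 15.3% against 9.62%.

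**Figure D4:**
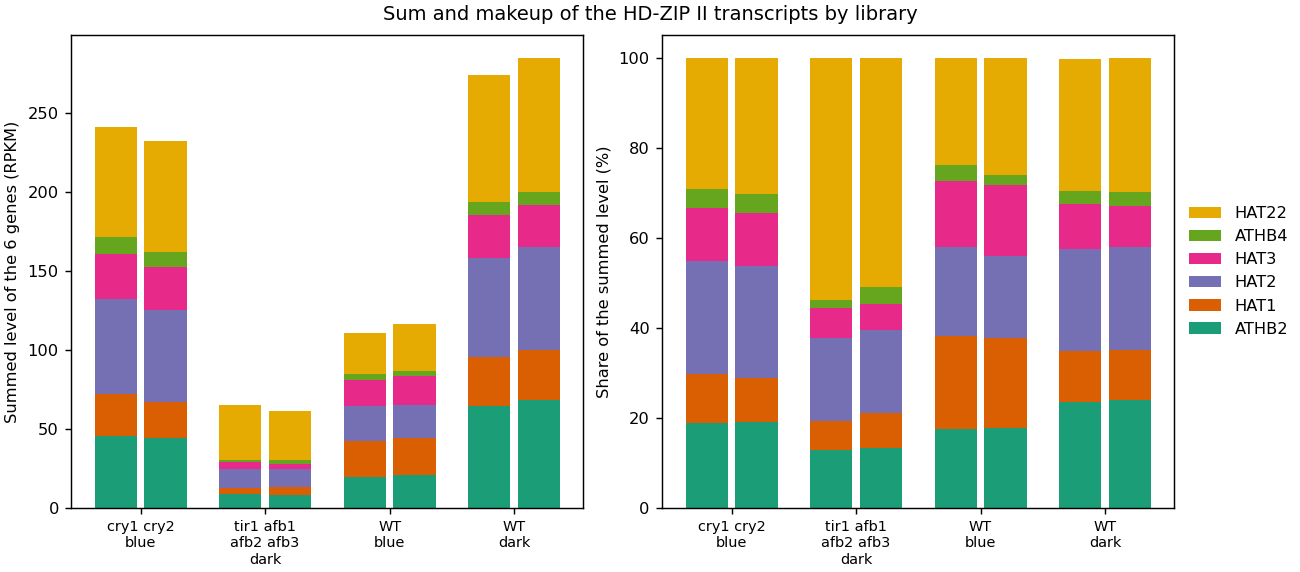
Summed RPKM of the 6 genes in each library (left) and the share of each gene in that sum in percent (right), with the 2 bars of a group side by side. The sum averages 279.7 RPKM in the dark wild type and 63.1 RPKM in the auxin receptor mutant, where HAT22 makes up 52.5%.

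The order of the groups was read gene by gene, and the auxin receptor mutant in darkness was set against the blue-lit wild type for this purpose only, since both light and genotype differ. It was lower for 5 of the 6 genes, against 52.5% of all tested genes that fell, with HAT1 (-2.14, SE 0.08, limma adjusted p = 6.3e-10) and HAT3 (-1.90, SE 0.08, limma adjusted p = 2.3e-09) far below. ATHB4 stood at 51.4% (-0.69, SE 0.17, limma adjusted p = 0.00277) and HAT2 at 54.3% (-0.83, SE 0.06, limma adjusted p = 1.87e-07) of the blue-lit wild type, and their order turned with a pseudocount of 0.1 (-0.96 for ATHB4 and -0.88 for HAT2). HAT22 was higher in the auxin receptor mutant (0.22, SE 0.07, limma adjusted p = 0.0188), against 23.1% of all tested genes that rose. This call was lost without blue-lit wild-type replicate 1 (0.13) or without auxin receptor mutant replicate 1 (0.14). For ATHB2 all neighbours in the order dark wild type, cry1 cry2, blue-lit wild type, auxin receptor mutant passed. Neighbours that did not pass the test were cry1 cry2 and the blue-lit wild type for HAT1, whose libraries overlapped. For HAT2, HAT3 and ATHB4 the neighbours that did not pass were cry1 cry2 and the dark wild type. In the order of HAT22, the step from cry1 cry2 (70.1 RPKM) to the auxin receptor mutant (33.1 RPKM) was not tested.

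The other class II genes, HAT9, HAT14, ATHB17 and ATHB18, were expressed at lower levels and did not move as 1 group. In blue light HAT14 (-0.53, SE 0.09, limma adjusted p = 0.000307) and ATHB18 (-0.40, SE 0.13, limma adjusted p = 0.015) fell in the wild type. HAT9, the closest relative of HAT22, rose (0.49, SE 0.10, limma adjusted p = 0.00132), to 6.20 ± 0.277 RPKM in blue light against 4.13 ± 0.0163 RPKM in darkness, and ATHB17 rose as well (0.91, SE 0.20, limma adjusted p = 0.00136). Rises made up 34% and falls 40.4% of all tested genes in that comparison. In cry1 cry2 HAT14 (0.45, SE 0.09) and ATHB18 (0.82, SE 0.13) rose at limma adjusted p of 0.00136 and 0.000172, and HAT9 (-0.16, limma adjusted p = 0.202) and ATHB17 (0.08, limma adjusted p = 0.735) did not pass. Rises made up 41.6% and falls 26.3% of all tested genes there.

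In the auxin receptor mutant HAT14 (-1.11, SE 0.09, limma adjusted p = 5.48e-07), ATHB18 (-0.73, SE 0.13, limma adjusted p = 0.000295) and HAT9 (-0.68, SE 0.10, limma adjusted p = 9.74e-05) fell, and ATHB17 (-0.02, limma adjusted p = 0.911) did not pass. Falls made up 51.4% of all tested genes in that comparison. ATHB18 rested on 10 reads in the mutant and 42 in the dark wild type. HAT14, at 2.10 ± 0.0315 RPKM in the mutant and 5.69 ± 0.216 RPKM in the wild type, was at 36.8% of the wild type. ATHB18 stood at 21.7%, and its log2 fold change was -1.81 with a pseudocount of 0.1. The shares kept by HAT14 and ATHB18 were both below that of HAT22. The call of ATHB18 in blue light was lost without blue-lit wild-type replicate 1 (-0.29) or dark wild-type replicate 1 (-0.32).

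Class I genes share the homeodomain-zipper architecture. Of 17 class I genes 13 were tested, and in blue light 10 fell and 0 rose, at a median of -0.90, while 40.4% of all tested genes fell and 34% rose. ATHB52 fell most, to 10.4 RPKM in blue light against 131 RPKM in darkness (-3.54, SE 0.09), and ATHB53 (-1.61, SE 0.13) and ATHB3 (-1.53, SE 0.07) followed. In cry1 cry2 11 of the 13 rose and 0 fell, at a median of 0.63, while 41.6% of all tested genes rose and 26.3% fell, with ATHB52 (2.92, SE 0.09) and the abscisic acid-responsive ATHB12 (2.06, SE 0.08) and ATHB7 (1.46, SE 0.08) in front. In the auxin receptor mutant 9 fell, with ATHB52 (-2.83, SE 0.09), ATHB20 (-1.81, SE 0.09) and ATHB16 (-1.76, SE 0.05) in front, and ATHB5 (0.44, SE 0.06) and ATHB7 (0.25, SE 0.08) rose, at a median of -1.004, while 51.4% of all tested genes fell and 27.5% rose. The call of ATHB7 was lost without dark wild-type replicate 2 (0.23) or auxin receptor mutant replicate 2 (0.21).

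Class III genes specify the upper side of leaves and the vasculature beside HAT3 and ATHB4, and the LITTLE ZIPPER (ZPR) genes code for small proteins that bind class III proteins. Of 9 listed genes 8 were in the files and 7 were tested. In blue light 5 fell, against 40.4% of all tested genes, and 0 rose, against 34%, at a median of -0.30, ZPR1 (-0.69, SE 0.10), ATHB15 (-0.56, SE 0.07) and ATHB8 (-0.42, SE 0.08) the most. In cry1 cry2 all 7 rose, against 41.6% of all tested genes, at a median of 0.52, ATHB15 by 0.62 (SE 0.07) and ZPR1 by 0.54 (SE 0.10). ZPR3, which rose by 0.74 (SE 0.24, limma adjusted p = 0.0162), lost its call with a pseudocount of 0.1 and without blue-lit wild-type replicate 2 (0.50) or cry1 cry2 replicate 1 (0.65). In the auxin receptor mutant 6 of the 7 fell, against 51.4% of all tested genes, at a median of -0.84, with the vascular gene ATHB8 at 18.6% of the wild type (-2.10, SE 0.08), REV at 36.4% (-1.30, SE 0.07) and ATHB15 at 38.8% (-1.27, SE 0.07).

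Of 22 genes of the shade and PIF pathway, all tested, 17 fell and 3 rose in blue light, at a median of -0.78, while 40.4% of all tested genes fell and 34% rose. The wall enzyme gene XTH15 (-6.42, SE 0.10), the auxin-induced repressor gene IAA19 (-3.45, SE 0.10) and PAR1 (-2.54, SE 0.07), which codes for a negative regulator of shade responses, fell most, and PIF7 (2.36, SE 0.10), YUC9 (0.84, SE 0.11) and YUC2 (0.37, SE 0.13) rose. The call of YUC2 was lost without blue-lit wild-type replicate 1 (0.26) or dark wild-type replicate 1 (0.32). In cry1 cry2 17 rose, against 41.6% of all tested genes, led by XTH15 (4.05, SE 0.10), the growth regulator PRE1 (3.02, SE 0.09) and PIF4 (2.76, SE 0.08), and the auxin synthesis genes YUC9 (-0.54, SE 0.11) and YUC5 (-0.39, SE 0.15) fell, against 26.3%. The call of YUC5 was lost without a filter on low values and without blue-lit wild-type replicate 2 (-0.26), cry1 cry2 replicate 2 (-0.28) or either auxin receptor mutant replicate (-0.39).

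In the auxin receptor mutant 12 of the 22 fell and 7 rose, at a median of -0.44. These shares lie near those of all tested genes, of which 51.4% fell and 27.5% rose. IAA29 stood at 3.39% of the dark wild type (-3.76, SE 0.09), IAA19 at 11.2% (-3.10, SE 0.10) and PAR1 at 13.2% (-2.77, SE 0.07). PIF5 (1.40, SE 0.09), the B-box gene BBX24 (1.37, SE 0.06) and PIF7 (0.59, SE 0.10) rose. PIF5 averaged 37.3 RPKM in these mutants and 13.5 RPKM in the dark wild type, while ATHB2 averaged 8.23 RPKM and 66.4 RPKM. In cry1 cry2 in blue light PIF5 was at 43.2 RPKM, against 7.29 RPKM in the blue-lit wild type. ATHB2 was there at 224% of the blue-lit wild type. Whether the level of PIF5 or of another PIF gene bears on ATHB2 was not tested.

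**Figure D5:**
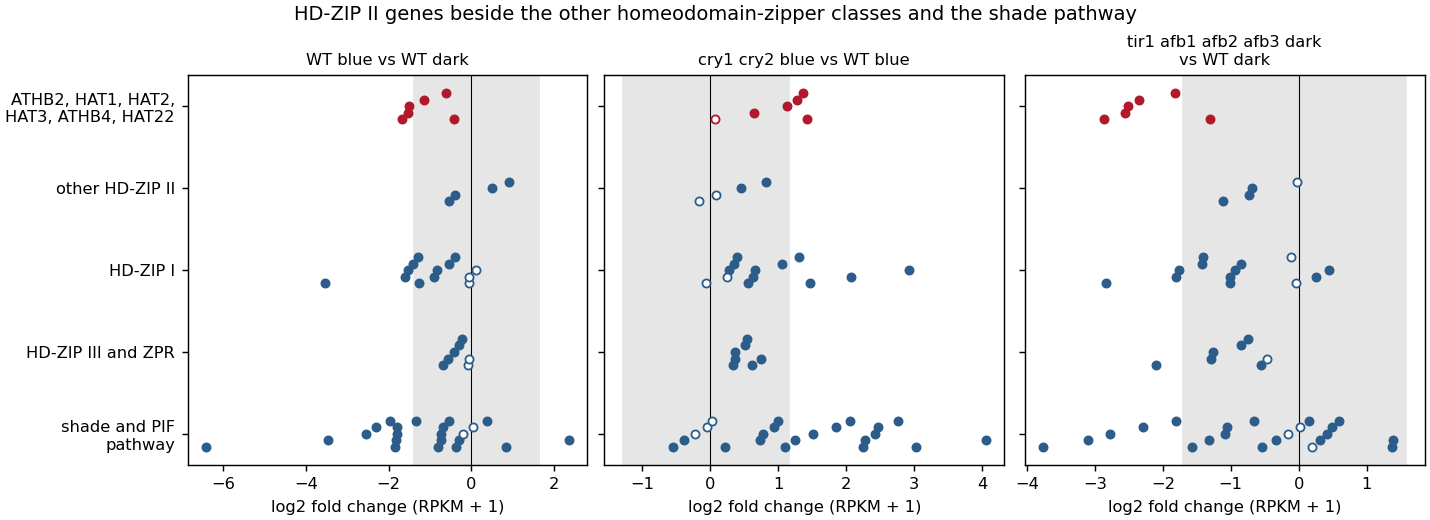
Log2 fold change of RPKM + 1 (horizontal axes) of each tested gene of the 6 HD-ZIP II genes (red) and of 4 comparison lists (blue), with filled points for calls and open points for genes that did not pass. The grey band spans the middle 90% of all tested genes. In the auxin receptor mutant the 6 genes lie between -2.87 and -1.30, and the other class II genes between -1.11 and -0.02. This scale understates the change of low genes. In RPKM, HAT14 and ATHB18 kept a smaller share of the dark wild-type level than HAT22 did.

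Genes with the most similar profiles were sought among 14483 tested genes with a mean of at least 5 RPKM, by the root mean square difference of mean-centred log2(RPKM + 1) over the 8 libraries, which share 4 groups. For ATHB2 the closest were AHL20, an AT-hook gene (0.07), ABCG14, which codes for a cytokinin transporter (0.08), and TRI (0.10), and for HAT2 they were AKINBETA1, a subunit gene of the SnRK1 kinase (0.06), ACBP3 (0.08) and AT5G55970 (0.09). For HAT1 they were AT2G44010 (0.09), the auxin-responsive SAUR63 (0.11) and CRK25 (0.12). For HAT3 they were PHO1 of phosphate loading into the xylem (0.08), MYB88 of the stomatal lineage (0.09) and AT4G29905 (0.09). For HAT22 they were AT5G16120 (0.10), GLY3 (0.10) and XERICO, a gene of abscisic acid homeostasis (0.10), and for ATHB4 no gene came closer than AT4G16008 (0.16), with AT3G20450 (0.17) and AT2G26695 (0.17) next. Among the 6 genes themselves, the most similar pairs were ATHB2 and HAT2 (0.22) and HAT1 and HAT3 (0.23), and the least similar was HAT1 and HAT22 (0.84).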

How the data were processed

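Polyadenylated RNA of whole seedlings was sequenced. The deposited values are in RPKM, per the file headers, 1 for each gene model, and per the submitters' processing notes Bowtie2 2.2.2 and TAIR10 were used. The annotation release, the assignment of reads to genes and strand use are not given in the sources used here. Reads were recovered from the steps between RPKM values (19.3 to 23.1 M per library), and replicates differed by a chi-square per degree of freedom of 2.52 to 4.37, more than sampling noise. Tests used limma 3.58.1 in R 4.3.3 (eBayes with a mean-variance trend) on log2(RPKM + 1) for the 20044 genes that reached 1 RPKM in 2 or more of 8 libraries, in a single fit of 4 groups with 4 residual and 6.96 prior degrees of freedom, after tests on simulated data. Intervals are 95% limma intervals. Windows and coordinates come from the TAIR10.1 genome and RefSeq annotation. Named genes were the 6 members, the other class II genes, up to 3 risen and 3 fallen genes with a mean of at least 1 RPKM of each list per comparison, the mutated genes and the 3 nearest profiles of each member. The members and lists were chosen with earlier results of these data known. The comparison of the auxin receptor mutant with the blue-lit wild type was added after the values were seen.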

Additional observations from a re-analysis of the deposited data

How the results depend on the processing

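Alternatives were a pseudocount of 0.1, no filter, upper-quartile scaling, the replicate number as a block, fits of only the 2 groups compared, no mean-variance trend and leaving out each library. Over 426 refits of the 6 genes in 5 comparisons, 417 kept the direction and the side of the threshold, 7 lost a call and 2 changed sign. Both sign changes concern HAT1 in cry1 cry2 against the blue-lit wild type, -0.020 with upper-quartile scaling and -0.024 to 0.17 with single libraries left out (lowest without cry1 cry2 replicate 1), around a value near 0. ATHB17, which passed in neither comparison, gave -0.080 to 0.24 in cry1 cry2 against the blue-lit wild type with single libraries left out (lowest without cry1 cry2 replicate 1), and in the auxin receptor mutant against the dark wild type 0.078 with upper-quartile scaling and -0.30 to 0.25 with single libraries left out, above 0 without dark wild-type replicate 2 or auxin receptor mutant replicate 2 (0.22); the cause was not tested. With single libraries left out, 1 to 3 members fell in cry1 cry2 against the dark wild type and 0 to 1 rose in the auxin receptor mutant against the blue-lit wild type. HAT22 in cry1 cry2 against the dark wild type lost its call without the trend (limma adjusted p = 0.063) and without 3 of the single libraries.

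Replicate numbers are shared between groups but mark nothing that the labels name, and deviations of same-numbered libraries correlated at -0.115 to 0.137. With the replicate block 14873 genes were called for blue light, 13491 for cry1 cry2, 15756 for the auxin receptor mutant and 8161 for cry1 cry2 against the dark wild type, against 14917, 13602, 15816 and 8341 without it, and no call of the 6 genes changed. With the numbers of the auxin receptor mutant crossed, added after seeing the data, 15884 genes were called. Depth limits ATHB4 most among the 6 genes, with 26 reads in its lowest library. Of the other HD-ZIP and ZPR genes named, ATHB18 and ATHB53 had as few as 4 reads, ZPR3 6 and ATHB17 17. Of the shade and PIF genes, PIF7 had as few as 9 reads, YUC5 10, YUC9 14 and IAA29 15. Among the tested tissue markers named, CUC1 had as few as 6 reads, WOX5 8, CUC3 9, RHD6 and VND7 10 and COBL9 16. CRY2 had as few as 2 reads in cry1 cry2.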
